A study of Mus musculus and Homo sapiens with 30 samples.

Results

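The genes described here are the transcriptional output and the feedback brakes of the ERK pathway: the phosphatases Dusp4, Dusp5 and Dusp6, the Sprouty genes Spry2 and Spry4, and the transcription factors Etv4, Etv5, Fosl1 and Egr1. They were taken by name, and all 9 were found among the 56980 gene IDs of the mouse table and, by the 9 given Ensembl IDs of their human counterparts, among the 61552 of the human table. RNA was sequenced from SkBr3, a human breast cancer line with amplified ERBB2 (4 libraries per medium), and from 2 mouse lines with 3 libraries per medium, E0771 (mammary cancer) and NMuMG (mammary gland epithelium, which the labels also list under breast cancer). After 36 h of growth, each culture received for 16 h either its usual medium (control) or a mixture in which 50% was secretome, the secreted products of inguinal adipocytes labelled lean or obese. The basal medium of all lines was DMEM with 10% serum. For NMuMG alone the labels also list insulin (10 mcg/ml) and a glucose level (4.5 g/L), and they give no glucose level for the other lines. The labels give neither the species of the adipocytes nor whether replicates were separate cultures, so the p-values measure only the spread between these libraries, which may be technical. The control medium held no secretome, so the share of secretome was matched only between lean and obese.

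Growth factor receptors switch on the kinase ERK through RAS, RAF and MEK, and active ERK turns on transcription of immediate-early genes and of longer-lived factors. Among its targets are its own inhibitors: DUSP6 removes the activating phosphates from ERK in the cytoplasm, DUSP5 does so in the nucleus, DUSP4 is a nuclear phosphatase that also acts on related kinases, and the Sprouty proteins act upstream, between receptor and RAF. ETV4 and ETV5 are ETS-family factors, FOSL1 (FRA1) is a partner of JUN in AP-1, and EGR1 is a short-lived zinc finger factor. The mRNA levels of these genes are widely read as a record of recent ERK activity; ERK phosphorylation itself was not measured here.

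Library totals ran from 18479433 to 29195499 counts in SkBr3, from 22929035 to 31094119 in E0771 and from 23966897 to 29686456 in NMuMG. Levels are given as CPM, counts-per-million, the count scaled by the library's total, and differences as log2 fold changes with their standard errors (SE) from a fit across all genes of a line; genes with an adjusted p under 0.05 are referred to as called. In NMuMG the epithelial genes Cdh1, Krt8, Krt18 and Krt19 were high (Cdh1 between 464 and 558 CPM), Epcam was low (1.59 to 2.66 CPM) and Cldn7 was at 0 in all 9 libraries. In E0771 Krt8 was between 229 and 258 CPM, while Epcam, Cdh1, Krt18, Krt19 and Cldn7 reached at most 8 counts in any library. Adipocyte genes were low, with summed levels of 8 genes between 0.823 and 1.61 CPM in E0771 and between 1.12 and 3.72 CPM in NMuMG. The sum was highest in the lean NMuMG libraries (2.97 to 3.72). Those detected were mainly Fabp4 in E0771 (0.643 to 1.53 CPM) and Cidec (0.289 to 2.08 CPM) and Plin4 (0.744 to 1.68 CPM) in NMuMG. Lep was at 0 in every library. In E0771 the summed level of 4 fibroblast genes was 295 to 321 CPM with the lean secretome. It was 530 to 729 CPM with the obese secretome and 758 to 840 in control medium. Nearly all of it was Pdgfra and Col1a1, with Dcn at most 7 counts. Over the 9 libraries Pdgfra stayed between 99.7 and 121 CPM while Col1a1 ranged from 191 to 723 CPM, so the sum shifted mostly through Col1a1. In the same line the sum of 4 mesenchymal genes, mostly Vim, was 2000 to 2220 CPM with the lean secretome, 2920 to 3050 with the obese secretome and 3100 to 3220 in control medium. In NMuMG that sum was 2700 to 2850, 3270 to 3460 and 3290 to 3440 CPM in the same order. There Vim was at 1740 to 1930 CPM and Fn1 at 886 to 1590 CPM over the 9 libraries, whereas Fn1 was at 0 in E0771. The sum of the 6 epithelial genes in NMuMG was 7800 to 8080, 6720 to 7010 and 7110 to 7520 CPM, again in that order. The part of these shifts in the changes below was not tested. Of 4 leukocyte genes, Cd68 was at 1.3 to 2.57 CPM in E0771 and 3 to 3.81 CPM in NMuMG, and the others reached at most 16 counts. Of 3 endothelial genes, Pecam1 was at 1.97 to 5.51 CPM in E0771 and at most 1 count in NMuMG. Cdh5 and Kdr reached at most 7 counts. Markers were not examined in SkBr3, where only the 9 IDs were named.

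In E0771 the lean secretome moved the genes in opposite directions. Against control medium, Dusp6, Spry2, Spry4, Etv4 and Etv5 fell and Dusp4, Dusp5 and Fosl1 rose, so that all 8 genes tested were called (5 lower, 3 higher). Against the obese secretome the same 5 genes were lower and the same 3 higher. Among all 13813 genes tested, 56.3% were called between lean secretome and control and 52.7% between lean and obese secretome, so a call alone was common in this line. By direction, 27.3% were called higher and 29% lower between lean secretome and control, and 25.8% and 26.9% between lean and obese. The typical size of a change (median of the absolute log2 values) was 0.75 in these 8 genes for lean over control, against 0.27 over all genes, and 0.56 for lean over obese, against 0.24. In each of the 8 genes the lean libraries were separated from all control and all obese libraries; such a separation was seen in 61.4% of all tested genes for lean and control and in 60.3% for lean and obese. These are bulk libraries, so fewer cells expressing a gene and less RNA per cell cannot be told apart.

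**Figure D1:**
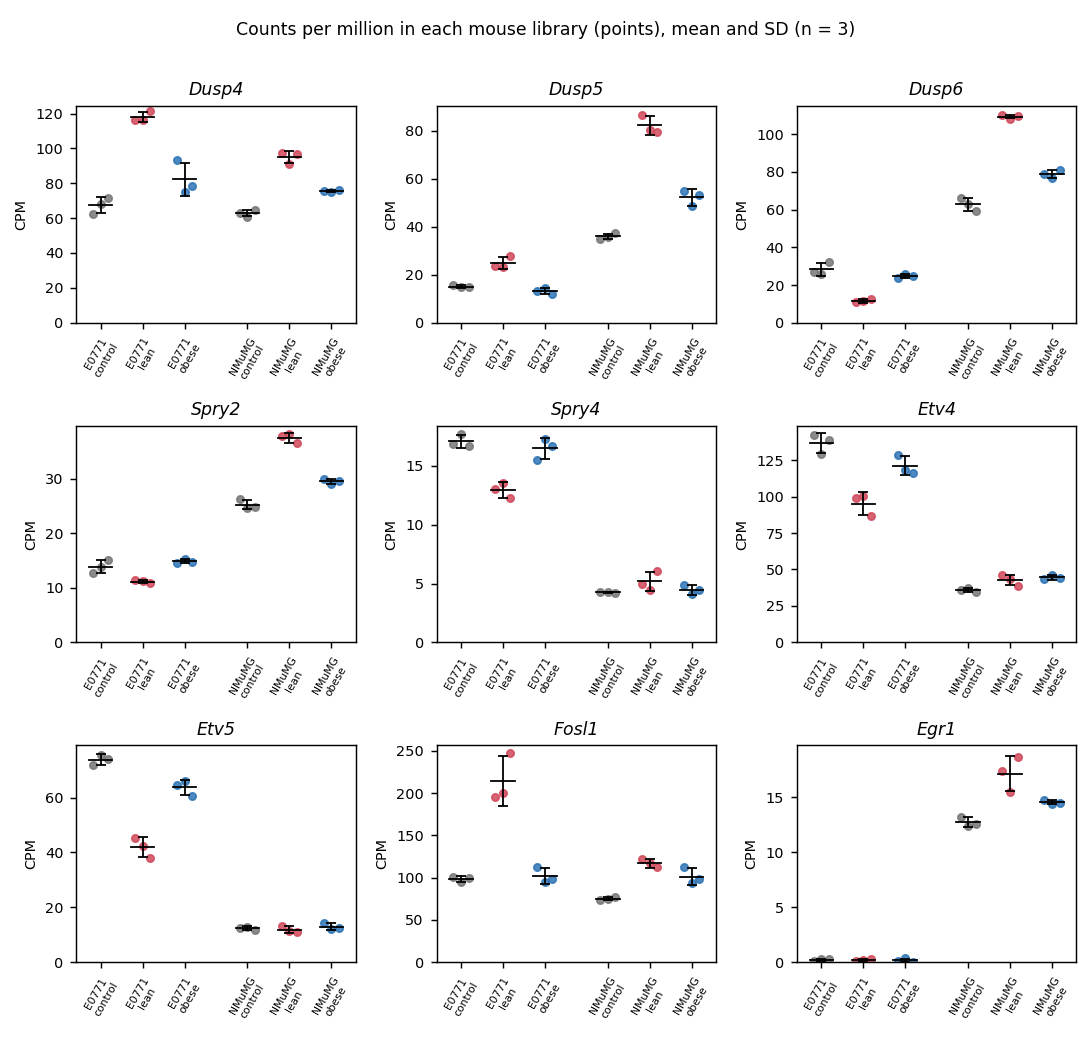
CPM (y axis, linear from 0) of the 9 genes in each E0771 and NMuMG library (points), by medium (x axis), with the mean and SD of 3 libraries as bars. Dusp6 falls with the lean secretome in E0771, to between 10.8 and 12.6 CPM, and rises with it in NMuMG, to between 108 and 110.0 CPM.

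Dusp6, the cytoplasmic ERK phosphatase, fell most. It was at 26.9, 25.7 and 32.4 CPM in the 3 control libraries of E0771, at 23.7, 25.8 and 24.8 CPM with the obese secretome and at 10.8, 11.4 and 12.6 CPM with the lean secretome. All lean libraries lay below all others, and the control and obese libraries overlapped. Its level with the lean secretome was 2.45-fold lower than in control medium (log2 fold change -1.29, SE 0.0865, adjusted p = 1.12e-11) and 2.14-fold lower than with the obese secretome (log2 fold change -1.10, SE 0.0872, adjusted p = 2.54e-10).

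The other phosphatases of the group went the opposite way. Dusp4 was at 62.5, 68.0 and 71.6 CPM in control medium, at 93.2, 75.1 and 78.5 CPM with the obese secretome and at 117, 116 and 122 CPM with the lean secretome, a 1.74-fold rise of lean over control (log2 fold change 0.80, SE 0.0687, adjusted p = 3.71e-08). Dusp5, the nuclear ERK phosphatase, was at 15.7, 14.7 and 14.8 CPM in control medium, at 13.0, 14.4 and 12.2 CPM with the obese secretome and at 23.5, 23.1 and 27.8 CPM with the lean secretome. For Dusp5 the lean libraries stood alone and the obese libraries were the lowest, so the lean over obese change (log2 0.91, SE 0.0845, adjusted p = 3.36e-09) was larger than the lean over control change (log2 0.71, SE 0.0834, adjusted p = 1.02e-07). For Dusp4 the obese libraries lay between the other groups.

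Both Sprouty genes fell modestly. Spry2 was at 12.8, 13.8 and 15.1 CPM in control medium, at 14.6, 15.3 and 14.7 CPM with the obese secretome and at 11.4, 11.2 and 10.8 CPM with the lean secretome (log2 fold change of lean over control -0.33, SE 0.0849, adjusted p = 0.00183). Spry4 was at 16.8, 17.7 and 16.6 CPM, 15.5, 17.2 and 16.6 CPM, and 13.0, 13.5 and 12.3 CPM in the same order (log2 fold change of lean over control -0.41, SE 0.0792, adjusted p = 9.1e-05). In both genes the control and obese libraries overlapped and the lean libraries lay under all of them.

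Both ETS factors fell as well. Etv5 was at 71.8, 75.6 and 74.1 CPM in control medium, at 64.4, 66.0 and 60.7 CPM with the obese secretome and at 45.2, 42.4 and 37.9 CPM with the lean secretome, 1.78-fold lower than control (log2 fold change -0.83, SE 0.0587, adjusted p = 2.54e-11). Etv4 was at 142, 129 and 138 CPM, at 128, 119 and 116 CPM, and at 98.8, 100.3 and 86.3 CPM in the same order (log2 fold change of lean over control -0.53, SE 0.0564, adjusted p = 7.06e-08). In both genes the obese libraries lay between the control and the lean libraries without touching either.

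Fosl1, the AP-1 subunit, had the largest increase among the 9 genes in E0771. It was at 101, 95.1 and 99.7 CPM in control medium, at 113, 95.2 and 99.0 CPM with the obese secretome and at 195, 200.3 and 248 CPM with the lean secretome, 2.16-fold higher than control (log2 fold change 1.11, 95% interval 0.88 to 1.34, adjusted p = 1.96e-05) and 2.09-fold higher than obese (log2 fold change 1.06, SE 0.0997, adjusted p = 2.91e-05). Control and obese libraries overlapped. Egr1 was close to undetected in E0771, with 2 to 9 counts in each of the 9 libraries against a floor of 3 counts, and was not tested in that line.

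The obese secretome had smaller effects on these genes in E0771 than the lean secretome. The median size of a change from control medium was 0.19 (log2) in the 8 tested genes, against 0.08 over all genes. By edgeR 5 of the 8 had an unadjusted p under 0.05, as had 2130 of all 13813 genes. Against control medium, edgeR called 2 of the 8 tested genes, Dusp4 higher (log2 fold change 0.29, SE 0.0698, adjusted p = 0.0402) and Etv5 lower (log2 fold change -0.22, SE 0.0573, adjusted p = 0.0402), against 2.61% of all genes called (1.21% higher, 1.4% lower). In 4 of the 8 genes, Dusp4, Dusp5, Etv4 and Etv5, the obese and control libraries did not overlap, as in 21.5% of all genes. Neither call was firm: Etv5 was not called when any 1 of the 6 control and obese libraries was left out (adjusted p from 0.0592 without obese replicate 2 to 0.251 without obese replicate 3). Dusp4 lost its call in a fit of the 2 groups alone (0.152), with a replicate block (0.0667), and on leaving out obese replicate 1 (0.128) or 3 (0.0785) or control replicate 1 (0.232) or 2 (0.129). Etv4 (log2 fold change -0.18, adjusted p = 0.0988) passed only with no filter (0.0137) and in the fit of the 2 groups alone (0.0259).

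In NMuMG the genes that changed all rose. The lean secretome raised Dusp4, Dusp5, Dusp6, Spry2, Etv4, Fosl1 and Egr1 against control, 7 of 9 tested, with none lower, where 38.2% of all 15014 genes were called (19.1% higher, 19.1% lower). Against the obese secretome it raised 6 of 9, the same genes without Etv4 (35% of all genes called, 17.6% higher and 17.4% lower). The obese secretome itself raised 6 of 9 against control, Dusp4, Dusp5, Dusp6, Spry2, Etv4 and Fosl1, where 5.01% of all genes were called (2.34% higher, 2.66% lower). Libraries did not overlap in 8 of the 9 genes between lean and control (48% of all genes), in 5 between lean and obese (45.2%) and in 7 between obese and control (21.3%). The median log2 fold change of the 9 genes was 0.57 for lean over control, 0.28 for obese over control and 0.22 for lean over obese, each against a median under 0.01 in size over all genes. The lean and obese comparisons with control share the control libraries.

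The phosphatases formed a graded series in NMuMG. Dusp5 was at 34.9, 35.8 and 37.2 CPM in control medium, at 55.1, 48.5 and 53.1 CPM with the obese secretome and at 86.7, 80.4 and 79.7 CPM with the lean secretome, a 2.29-fold rise of lean over control (95% interval of the log2 fold change 1.09 to 1.30, adjusted p = 3.6e-19) and a 1.47-fold rise of obese over control (log2 fold change 0.55, SE 0.0533, adjusted p = 1.07e-08). Dusp6 was at 66.1, 62.9 and 59.5 CPM in control medium, at 78.7, 76.8 and 81.2 CPM with the obese secretome and at 110.0, 108 and 109.6 CPM with the lean secretome (log2 fold change of lean over control 0.80, SE 0.0424, adjusted p = 1.59e-16). Dusp4 was at 63.0, 60.9 and 64.5 CPM, at 75.8, 75.0 and 76.1 CPM, and at 97.4, 91.3 and 96.9 CPM in the same order (log2 fold change of lean over control 0.60, SE 0.0416, adjusted p = 8.17e-14). In all of these phosphatases every obese library lay above every control library and below every lean library, and each step was called: for lean over obese the log2 fold changes were 0.64 for Dusp5, 0.46 for Dusp6 and 0.32 for Dusp4.

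The start regions of Dusp5 and Dusp6 are shown because these genes moved together in NMuMG and apart in E0771. They are RefSeq sequences of GRCm38.p6, 250 bases upstream of the annotated start on the gene's strand, 5′ to 3′; capitals mark each CArG box, the binding element of serum response factor, which acts with ETS partners of ERK at immediate-early genes. The table of start regions held 4 of the 9 mouse genes.
Dusp5 (chr19:53528895-53529144, plus strand): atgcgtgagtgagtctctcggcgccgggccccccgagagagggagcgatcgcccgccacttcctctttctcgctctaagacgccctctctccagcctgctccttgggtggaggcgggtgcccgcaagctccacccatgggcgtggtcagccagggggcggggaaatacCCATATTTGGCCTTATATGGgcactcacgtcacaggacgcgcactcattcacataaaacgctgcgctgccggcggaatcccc
Dusp6 (chr10:99262981-99263230, plus strand): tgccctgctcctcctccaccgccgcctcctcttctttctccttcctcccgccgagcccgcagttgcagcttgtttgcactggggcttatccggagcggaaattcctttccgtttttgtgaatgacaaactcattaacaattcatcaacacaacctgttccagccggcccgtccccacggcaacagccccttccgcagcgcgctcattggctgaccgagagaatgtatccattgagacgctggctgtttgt
The Dusp5 window held 2 CArG boxes, starting 82 and 72 bases before the start and lying end to end; the pattern searched, CC, 6 bases that are A or T, then GG, is its own reverse complement. The Dusp6 window held none, nor did those of Spry2 and Etv5. Of all 32851 windows of this length, 1.47% held at least 1 CArG box. The ETS core GGAA, searched on both strands as GGAA or TTCC, occurred 3 times in the Dusp5 window and 6 times in the Dusp6 window, and 93.4% of all windows held it. The longer ETS pattern, CCGGAA or TTCCGG, had no match in either window and was present in 12.0% of all windows. No match was found in either window for the AP-1 element TGANTCA, present in 6.75% of all windows, or the CRE TGACGTCA, in 1.55%. A match is a description of these letters and says nothing of binding in these cells.

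Spry2 followed the phosphatases in NMuMG. It was at 26.2, 24.7 and 24.8 CPM in control medium, at 29.9, 29.0 and 29.5 CPM with the obese secretome and at 37.8, 38.1 and 36.5 CPM with the lean secretome (log2 fold change of lean over control 0.57, SE 0.0557, adjusted p = 2.23e-10, and of obese over control 0.24, SE 0.0576, adjusted p = 0.00878). The groups did not overlap. Spry4 was low, at 4.22 to 4.29 CPM in control medium, 4.09 to 4.88 CPM with the obese secretome and 4.49 to 6.06 CPM with the lean secretome, and was not called (log2 fold change of lean over control 0.28, 95% interval 0.02 to 0.55, adjusted p = 0.0898). It was called without lean replicate 2 (adjusted p = 0.0427).

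Fosl1 was at 73.1, 75.3 and 77.5 CPM in control NMuMG cells, at 113, 93.3 and 97.9 CPM with the obese secretome and at 122, 117 and 112 CPM with the lean secretome. The rise over control was called with both secretomes (lean, log2 0.64, SE 0.0611, adjusted p = 6.26e-07; obese, log2 0.45, SE 0.0619, adjusted p = 0.000474). Lean and obese libraries overlapped, and the lean over obese difference (log2 0.19, SE 0.0603, adjusted p = 0.0204) lost its call when only the compared groups were fitted (0.0599) and on leaving out obese replicate 2 (0.0501) or 3 (0.0647) or lean replicate 1 (0.0633) or 2 (0.0531).

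Egr1 was well detected in NMuMG, unlike in E0771. It was at 13.2, 12.4 and 12.6 CPM in control medium, at 14.8, 14.4 and 14.5 CPM with the obese secretome and at 17.4, 15.5 and 18.7 CPM with the lean secretome (log2 fold change of lean over control 0.43, SE 0.0782, adjusted p = 3.07e-05). The lean over obese difference (log2 0.22, SE 0.0780, adjusted p = 0.0237) was not called by DESeq2 (0.0703), nor on leaving out obese replicate 2 (0.0654) or 3 (0.0625) or lean replicate 1 (0.0673) or 3 (0.153).

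Of the ETS factors, Etv4 responded to both secretomes in NMuMG and Etv5 passed no test there. Etv4 was at 36.0, 37.3 and 34.9 CPM in control medium, at 43.6, 46.5 and 44.0 CPM with the obese secretome and at 46.1, 43.3 and 39.0 CPM with the lean secretome (log2 fold change of obese over control 0.33, SE 0.0567, adjusted p = 0.00025, and of lean over control 0.25, SE 0.0565, adjusted p = 0.000469). Lean and obese libraries overlapped, with a log2 difference of -0.07 (95% interval -0.19 to 0.04). Etv5 stayed between 11.0 and 14.4 CPM in the 9 libraries, with a log2 fold change of lean over control of -0.04 (95% interval -0.23 to 0.14).

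**Figure D2:**
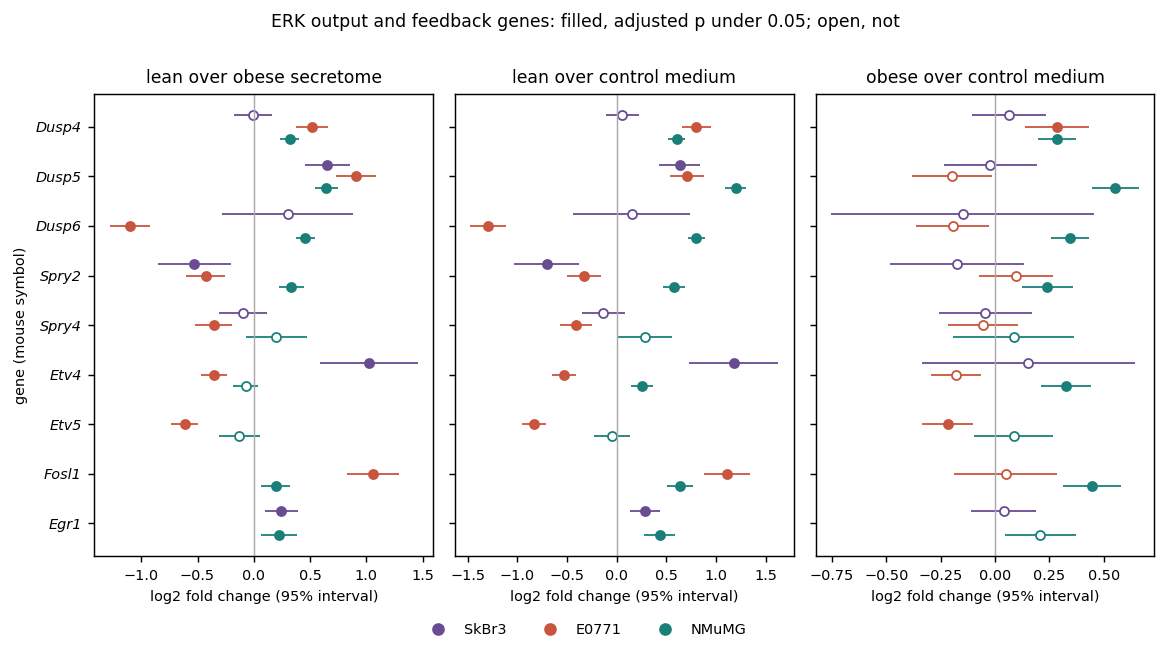
Log2 fold changes (x axis) of the 9 genes (y axis, mouse symbols also for the human genes) with 95% intervals, for lean over obese, lean over control and obese over control, in SkBr3, E0771 and NMuMG; filled points were called at an adjusted p under 0.05, open points were not, and untested genes have no point. The horizontal scales differ between panels; in E0771 the lean panels split into genes on both sides of 0, and in NMuMG all called points lie to the right.

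The difference between the mouse lines was then tested itself, as the effect in E0771 minus that in NMuMG in 1 fit of the 18 mouse libraries. Lean over control differed between the lines in 8 of the 9 genes, 2 higher and 6 lower in E0771, against 34.5% of all 16529 genes (19.4% higher, 15.1% lower). Lean over obese differed likewise in 8 of 9, 3 higher and 5 lower, against 34.2% (18.8% higher, 15.5% lower). The 16529 genes include those that passed the filter through 1 line only, and the share over genes tested in each line alone was not taken. In both comparisons the gene not called was Egr1, too low in E0771 to be tested there alone. The largest difference was in Dusp6, -2.07 on the log2 scale for lean over control (SE 0.0922, adjusted p = 4.38e-20), a gene that fell in E0771 and rose in NMuMG. Spry2 (-0.88, SE 0.0978, adjusted p = 1.95e-09) and Etv4 (-0.76, SE 0.0824, adjusted p = 4.31e-09) also changed direction between the lines, each called lower in E0771 and higher in NMuMG. Etv5 (-0.76, SE 0.106, adjusted p = 2.12e-07) and Spry4 (-0.67, SE 0.146, adjusted p = 0.000296) fell in E0771 and were not called in NMuMG.

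Dusp4, Dusp5 and Fosl1 rose with the lean secretome in both lines, by different amounts. Fosl1 rose more in E0771 than in NMuMG (difference for lean over control 0.49, SE 0.137, adjusted p = 0.0121), and Dusp5 rose less (-0.46, SE 0.0968, adjusted p = 0.000179). For lean over obese the sign of the Dusp5 difference turned (0.28, SE 0.0967, adjusted p = 0.0199), since the obese secretome raised Dusp5 in NMuMG and not in E0771, a difference of -0.74 for obese over control (SE 0.103, adjusted p = 2.76e-05). The lean over obese difference of Dusp5 was not called by DESeq2 (0.0541), nor on leaving out replicate 3 of the E0771 lean (0.111), E0771 obese (0.0967) or NMuMG lean libraries (0.0812) or NMuMG obese replicate 1 (0.0632). Those of Dusp4 were small and unstable (0.22 for lean over control, adjusted p = 0.0287, and 0.21 for lean over obese, adjusted p = 0.0359): DESeq2 gave 0.0566 and 0.0953, and leaving out 6 libraries in turn ended the first call (0.055 to 0.114) and 7 the second (0.065 to 0.134). The libraries were E0771 lean replicate 3 and NMuMG lean replicates 2 and 3 for both, E0771 control replicate 1 and NMuMG control replicates 1 and 3 for the first, and obese replicates 2 and 3 of E0771 and 1 and 3 of NMuMG for the second. For obese over control 3 of 9 genes differed, Dusp5, Dusp6 (-0.53, SE 0.0879, adjusted p = 0.000433) and Etv4 (-0.50, SE 0.0823, adjusted p = 0.00066), each lower in E0771, against 1.69% of all genes (1.06% higher, 0.623% lower). DESeq2 also called Fosl1 in that comparison (log2 -0.38, adjusted p = 0.0308, against 0.229 in edgeR).

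**Figure D3:**
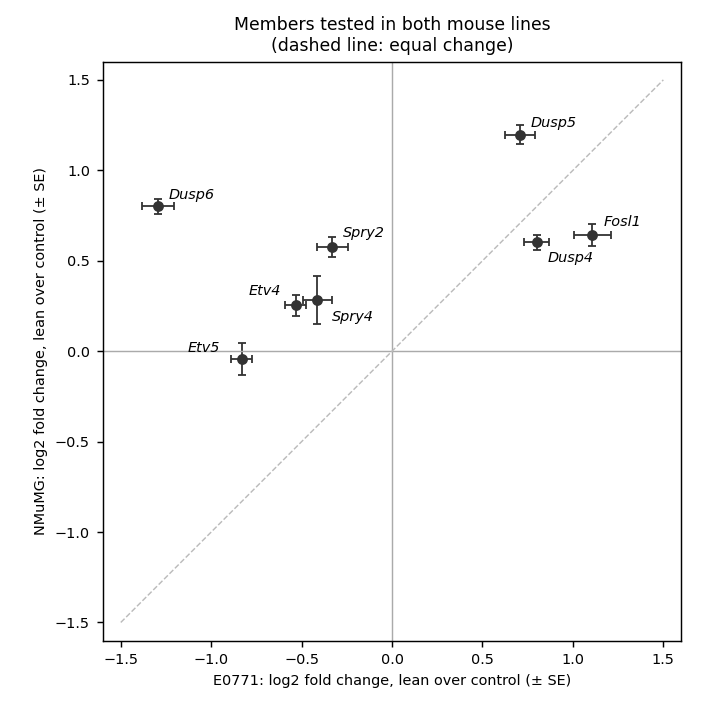
Log2 fold change of lean secretome over control medium in E0771 (x axis) against that in NMuMG (y axis) for the 8 genes tested in both lines, with SE bars and the line of equal change. Dusp4, Dusp5 and Fosl1 lie in the upper right, and Dusp6, at -1.29 and 0.80, lies farthest into the upper left.

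In control medium 7 of the 8 genes tested in each line alone were called between the lines (87.5%, 4 higher and 3 lower in E0771). This share was near the 78.8% of all 12433 genes tested in each line alone, so such a call was common. The same 7 had libraries that did not overlap. Over all 16529 genes, which include those that passed the filter through 1 line only, 80.5% were called (37.1% higher, 43.4% lower) and 82.7% did not overlap. Cell line and growth medium cannot be told apart here, since the NMuMG medium alone is listed with insulin and a glucose level. Etv5, Spry4 and Etv4 were 5.53-fold, 3.71-fold and 3.51-fold higher in E0771 (log2 2.47, 1.89 and 1.81). Dusp5, Dusp6 and Spry2 were 2.58-fold, 2.40-fold and 1.97-fold lower in E0771 (log2 -1.36, -1.26 and -0.98). Dusp4 was at 67.4 ± 4.60 CPM (SD, n = 3) in E0771 and 62.8 ± 1.78 CPM in NMuMG and was not called (log2 -0.01, 95% interval -0.13 to 0.11). Egr1 was at 0.235 ± 0.0795 CPM in E0771 and 12.7 ± 0.447 CPM in NMuMG; it passed the filter only through the NMuMG libraries, so it had to differ and is not counted here. Fosl1 was 1.21-fold higher in E0771 (adjusted p = 0.0194), a call lost without control replicate 1 of either line (0.0517 and 0.0573) and with a replicate block (0.109). Of the 4 genes higher in control E0771, Etv4, Etv5 and Spry4 fell there with the lean secretome and Fosl1 rose. Of the 3 lower ones, Dusp6 and Spry2 fell and Dusp5 rose.

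SkBr3, the human line, differed from both in its list of called genes. The lean secretome raised DUSP5, ETV4 and EGR1 and lowered SPRY2, both against control and against the obese secretome, 4 of the 7 genes tested in each case. Of all 14874 genes 48.8% were called for lean over control (23.7% higher, 25.1% lower) and 44.1% for lean over obese (21.1% higher, 23.1% lower). Libraries did not overlap in 4 of the 7 genes between lean and control (41.8% of all genes), in 3 between lean and obese (34.9%) and in 0 between obese and control (10.9%). No gene was called between obese secretome and control by edgeR (0 of 7, also 0 at an unadjusted p under 0.05 and 0 by DESeq2), where 1.16% of all genes were (0.605% higher, 0.551% lower). SkBr3 is in another table with other gene IDs, so its effects were not tested against those of the mouse lines.

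DUSP5 was at 7.97, 8.23, 7.63 and 8.75 CPM in control SkBr3 cells, at 8.42, 7.51, 7.56 and 8.77 CPM with the obese secretome and at 13.0, 14.2, 10.2 and 14.3 CPM with the lean secretome (log2 fold change of lean over obese 0.65, SE 0.0974, adjusted p = 1.65e-05). The 4 lean libraries lay above all others. ETV4 was at 3.10, 2.95, 3.14 and 2.84 CPM in control medium, at 4.71, 2.98, 2.40 and 3.43 CPM with the obese secretome and at 6.98, 7.44, 4.12 and 9.00 CPM with the lean secretome, 2.03-fold higher than obese (log2 fold change 1.02, SE 0.204, adjusted p = 0.000776). For ETV4 lean replicate 3 lay below obese replicate 1; the other lean libraries lay above all obese libraries.

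EGR1 was at 15.8, 16.1, 17.9 and 17.8 CPM in control medium, at 18.9, 15.9, 16.3 and 18.6 CPM with the obese secretome and at 21.8, 21.3, 21.4 and 20.1 CPM with the lean secretome, a small rise in which the groups did not overlap (log2 fold change of lean over obese 0.25, SE 0.0698, adjusted p = 0.00656). SPRY2 was at 2.32, 2.64, 2.60 and 2.84 CPM in control medium, at 2.17, 2.56, 2.36 and 2.16 CPM with the obese secretome and at 1.68, 1.69, 1.46 and 1.69 CPM with the lean secretome (log2 fold change of lean over obese -0.53, SE 0.157, adjusted p = 0.00902). All lean libraries lay below the others.

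The remaining human genes showed no called change or were too low to test. DUSP4, at 130 to 166 CPM over the 12 libraries, had a log2 difference between lean and obese of -0.01 (95% interval -0.18 to 0.16). For SPRY4, at 10.7 to 15.7 CPM, it was -0.09 (95% interval -0.31 to 0.12). DUSP6 was low in SkBr3, with 12 to 27 counts per library, and its interval was wide (log2 0.30, 95% interval -0.28 to 0.88). FOSL1 and ETV5 did not pass the filter on low counts. ETV5 had 0 to 5 counts in each library. FOSL1 had 1, 1, 1 and 0 counts in control medium, 6, 3, 1 and 2 with the obese secretome and 7, 25, 3 and 19 with the lean secretome, so lean replicate 3 lay within the obese range. With no filter, edgeR gave FOSL1 an adjusted p of 5.71e-07 for lean over control and 0.000666 for lean over obese, and DESeq2 gave 0.000621 and 0.0152.

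**Figure D4:**
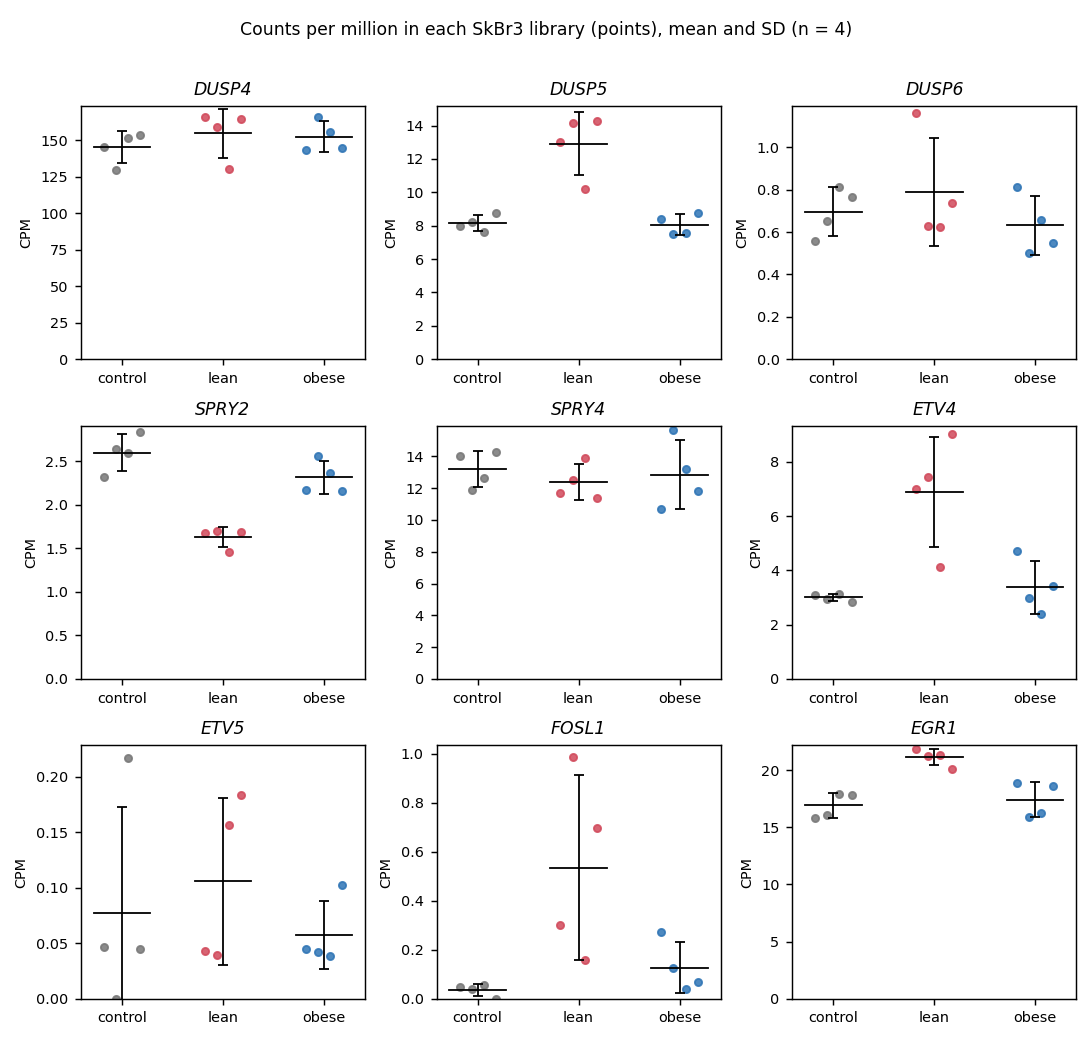
CPM (y axis, linear from 0) of the 9 human genes in each SkBr3 library (points) by medium (x axis), with the mean and SD of 4 libraries. The lean libraries stand above the others for DUSP5 (10.2 to 14.3 CPM) and below them for SPRY2 (1.46 to 1.69 CPM); ETV5 and FOSL1 are at most 0.98 CPM throughout.

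Across the 3 lines, DUSP5 was the only 1 of the 9 genes called higher with the lean secretome against both other media in every line; EGR1 was not tested in E0771 and FOSL1 not in SkBr3. SPRY2 was lower with the lean secretome in SkBr3 and E0771 and higher in NMuMG. ETV4 was higher than control in SkBr3 and NMuMG and lower in E0771.

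The wider pathway was examined in the mouse lines with lists of other feedback regulators (16 genes, 15 matched), other output genes (20) and pathway components (24). The feedback list also holds Rasa1, Nf1 and Lztr1, inhibitors of RAS that need not be targets of ERK. Of the output genes, 17 of 18 tested were called for lean over control in E0771, 13 higher and 4 lower (94.4%, against 56.3% of all genes), with a median log2 fold change of 0.62 against -0.01 over all genes. In NMuMG 13 of 19 were called, all higher (68.4%, against 38.2%), with a median of 0.31 against 0.00. For lean over obese the counts were 13 higher and 4 lower of 18 in E0771 (94.4%, against 52.7%) and 13 higher and 1 lower of 19 in NMuMG (73.7%, against 35%). The obese secretome raised 8 of the 19 over control in NMuMG (42.1%, against 5.01% of all genes called, and 5 to 10 with single libraries left out, 5 without control replicate 1) and 0 of 18 were called in E0771 by edgeR (against 2.61% of all genes; 3 of 18 at an unadjusted p under 0.05) and 0 by DESeq2. No test of the lists was made.

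The output genes with the largest changes in E0771 went both ways. Areg, a ligand of the EGF receptor, was at 0.943 CPM in control medium, 1.55 with the obese and 4.80 with the lean secretome (means of 3; log2 fold change of lean over obese 1.62, SE 0.185, adjusted p = 8.96e-08), and Fos, the founding AP-1 subunit, rose by 1.40 from a level under 1 CPM (SE 0.472, adjusted p = 0.0149). Egr3, a relative of Egr1, fell from 3.45 CPM with the obese to 1.24 CPM with the lean secretome (log2 fold change -1.47, SE 0.184, adjusted p = 3.1e-07), and Etv1, the third member of the Etv4 and Etv5 family, fell from 12.0 to 4.80 CPM (-1.33, SE 0.105, adjusted p = 2.47e-10). All PEA3-family genes, Etv1, Etv4 and Etv5, thus fell in E0771 with the lean against the obese secretome while Fos, Fosb, Fosl1, Fosl2, Jun and Junb of AP-1 rose.

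In NMuMG the largest changes of lean over obese among the called output genes were in Fos (log2 fold change 0.77, SE 0.181, adjusted p = 0.000917), Plaur, the urokinase receptor (0.72, SE 0.105, adjusted p = 0.00205), Areg (0.55, SE 0.0504, adjusted p = 2.77e-10) and Epha4, an ephrin receptor (0.52, SE 0.0383, adjusted p = 1.28e-12). Jun was the 1 output gene called lower, from 31.4 to 25.8 CPM (log2 fold change -0.30, SE 0.0655, adjusted p = 0.000488).

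Among the other feedback regulators, E0771 again showed both directions for lean over obese, 5 higher and 4 lower of 14 tested (64.3%, against 52.7% of all genes), with a median log2 fold change of -0.09. Dusp1 (log2 fold change 0.99, SE 0.199, adjusted p = 0.00535), Dusp16 (0.96, SE 0.0642, adjusted p = 3.11e-11) and Dusp8 (0.78, SE 0.115, adjusted p = 3.03e-06), phosphatases that act mainly on JNK and p38, rose. Lztr1, an adaptor for the degradation of RAS proteins, fell by 0.69 (SE 0.0554, adjusted p = 5.84e-10). In NMuMG 4 of 15 were called (26.7%, against 35% of all genes): Dusp1 (0.89, SE 0.0565, adjusted p = 3.15e-14) and Spry1 (0.23, SE 0.0755, adjusted p = 0.0165) rose, Errfi1, an inhibitor of EGF receptors, fell by 0.13 (SE 0.0437, adjusted p = 0.022), and Dusp2, near 1 CPM, fell by 0.84 (SE 0.315, adjusted p = 0.0361) with overlapping libraries. DESeq2 called 2 of the 15, as did edgeR without obese replicate 3. For lean over control edgeR called 12 of 14 in E0771, 6 higher and 6 lower (85.7%, against 56.3% of all genes). In NMuMG it called 4 of 15, 3 higher and 1 lower (26.7%, against 38.2%). For obese over control 1 of 14 was called lower in E0771 (7.14%, against 2.61%) and 3 of 15 higher in NMuMG (20%, against 5.01%).

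Pathway components moved less. For lean over obese 16 of 24 were called in E0771, 6 higher and 10 lower (66.7%, against 52.7%), with a median size of change of 0.16 (log2) against 0.24 over all genes, and 7 of 24 in NMuMG (29.2%, against 35%), with 0.05 against 0.16. In E0771 Mapk3, which encodes ERK1, fell from 141 CPM with the obese to 75.9 CPM with the lean secretome (log2 fold change -0.90, SE 0.0635, adjusted p = 2.98e-09). Rps6ka1, an ERK-activated kinase, fell by 0.52 (SE 0.0735, adjusted p = 1.88e-06), Elk3, an ETS factor, by 0.31 (SE 0.0439, adjusted p = 1.66e-06), and Rps6ka2 was called lower at levels under 1 CPM (0.694 CPM with the obese and 0.0657 CPM with the lean secretome). In NMuMG the called genes with the largest changes were Rps6ka2 (0.42, SE 0.0616, adjusted p = 1.19e-06), Rps6ka3 (-0.25, SE 0.0413, adjusted p = 7.35e-06), Araf (0.20, SE 0.0462, adjusted p = 0.000866) and Shc1 (0.16, SE 0.0370, adjusted p = 0.000867), and Mapk3 had a log2 fold change of 0.00 (adjusted p = 0.988).

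**Figure D5:**
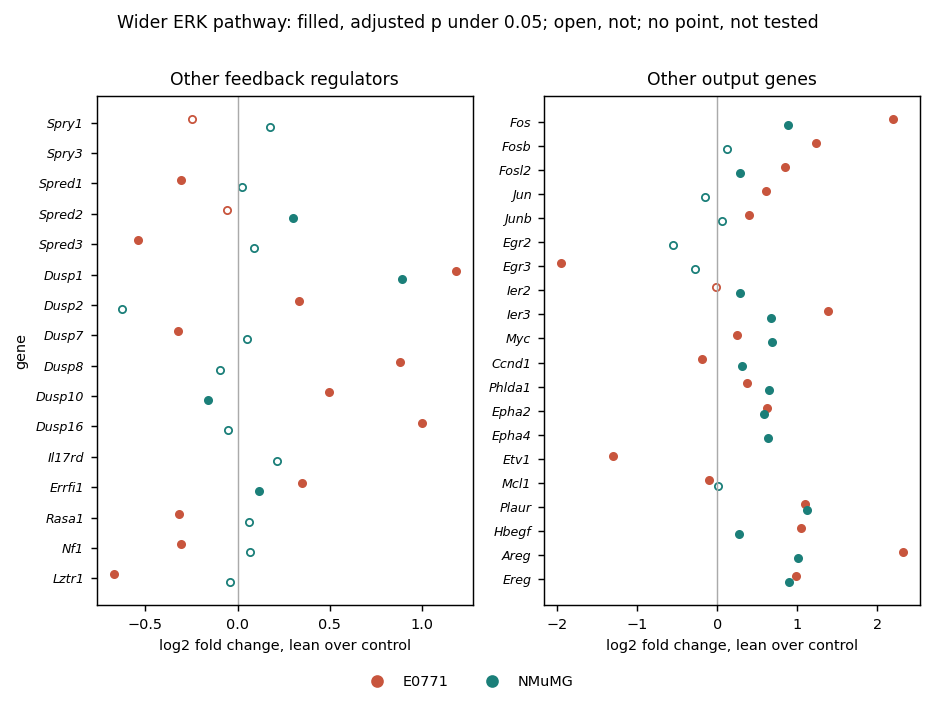
Log2 fold change of lean secretome over control medium (x axis, scales differ between panels) for the other feedback regulators and output genes (y axis) in E0771 and NMuMG; filled points were called, open points were not, and untested genes have no point. Output genes lie mostly to the right in both lines, with Egr3 (-1.95) and Etv1 (-1.30) far to the left in E0771.

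The genes whose profile over the 9 libraries was most like that of Dusp6 differed between the lines. Likeness was the root mean square difference of mean-centred log2 CPM, taken over genes whose log2 CPM averaged 2 or more. In E0771 the 3 nearest of 9542 genes were Ypel3 (0.111), Lpin1 (0.115) and H2afv (0.118), where the spread of Dusp6 itself was 0.578. In NMuMG the 3 nearest of 10184 genes were Ier3 (0.0623), Tnfaip3 (0.0735) and Gfod1 (0.0754), where the spread of Dusp6 was 0.331. In E0771 Ier3 rose with the lean secretome over control (log2 fold change 1.39, SE 0.155, adjusted p = 0.000271) while Dusp6 fell.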

How the data were processed

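RNA of 30 libraries (12 SkBr3, 9 E0771, 9 NMuMG) was poly(A) selected and prepared with a directional protocol, per the labels. The authors deposited raw counts per Ensembl gene ID, in 1 human and 1 mouse table, checked to be whole numbers with differing totals. The submitters' processing notes name cutadapt 1.16, STAR 2.7.9a, featureCounts 1.6.3 and only GRCm39; the human build, strand setting and annotation are not given in the sources used here. Groups follow the sample titles, and no batch is named. Mouse symbols came from GENCODE M21 (52073 of 56980 IDs, 99.68% of counts).

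Each line was fitted alone over its 3 media in edgeR 4.0.16 (R 4.3.3): filterByExpr, TMM (factors 0.987 to 1.02), a robust quasi-likelihood fit and F tests with Benjamini-Hochberg adjustment over all genes. Line differences were tested as interactions over 18 libraries. Alternatives were DESeq2 1.42.0, DESeq2 size factors in edgeR, no filter, a replicate block, only the compared groups, and leaving out each library. The code was tested on simulated data. Replicates differed beyond counting error (chi-square per degree of freedom 1.97 to 15.0). Named were all 9 genes and, per list and mouse line, the 4 called genes with the largest lean over obese change; other list genes were named after their values were seen. The genes and lists were chosen with earlier results of these data known. 1 pathway component counted in its list is not reported here. Counting error alone sets the floor of 3 counts.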

Additional observations from a re-analysis of the deposited data

Results flagged for a closer look

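The E0771 and NMuMG responses differed, by the interaction test in edgeR with Benjamini-Hochberg adjustment, in 19 of 27 gene and comparison pairs. The comparisons share libraries. Over all 16529 genes, 34.5% were called for lean over control, 34.2% for lean over obese and 1.69% for obese over control. These include genes that passed the filter through 1 line only. Values are the log2 effect in E0771 minus that in NMuMG. For lean over control they were -2.07 in Dusp6, -0.88 in Spry2, -0.76 in Etv4, -0.76 in Etv5, -0.67 in Spry4, -0.46 in Dusp5, 0.22 in Dusp4 and 0.49 in Fosl1. For lean over obese they were -1.54 in Dusp6, -0.74 in Spry2, -0.54 in Spry4, -0.47 in Etv5, -0.26 in Etv4, 0.21 in Dusp4, 0.28 in Dusp5 and 0.88 in Fosl1. For obese over control they were -0.74 in Dusp5, -0.53 in Dusp6 and -0.50 in Etv4. The Etv4 difference for lean over obese was not called without NMuMG lean replicate 1 (adjusted p = 0.0629). The Dusp4 difference lost its call in 7 of 17 alternatives for lean over control and in 9 of 17 for lean over obese. The Dusp5 difference for lean over obese lost its call in 5 of 17.

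In SkBr3, lean replicate 3 had 1.46 CPM of SPRY2, apart from the other 3 lean libraries (1.68 to 1.69 CPM). It was the 1 library that stood apart from its group among 25 groups of 4 examined, and chance alone marks about 1 group in 20. The same library also affected the calls over all genes. Leaving it out raised them from 6561 to 7324 for lean over obese and from 7254 to 7875 for lean over control.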

How the results depend on the processing

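Of the 108 log2 fold changes of single genes, 96 kept their call in every alternative run; over all 1392 alternative values 47 lost a call, 4 gained one and none reversed. In SkBr3 none changed, and in E0771 none changed for lean over control or lean over obese. For obese over control in E0771 the count of 2 called genes was 1 with a replicate block and 0 to 1 with single libraries left out. Same-numbered replicates did not pair: correlations of their deviations ran from -0.0942 to 0.110 (1 of 30 pairs over 0.1), and 3 of 12, 3 of 9 and 3 of 9 libraries of SkBr3, E0771 and NMuMG were closest to their own number. The block moved the calls over all genes from 7275 to 7150 (E0771, lean over obese) and from 172 to 223 (SkBr3, obese over control). List counts moved as follows. For obese over control in E0771, feedback regulators went from 1 to 2 with no filter and 0 to 2 with single libraries left out, output genes from 0 to 1 with no filter and with only the compared groups, and components from 0 to 2 with no filter and 0 to 1 with libraries left out. In NMuMG, DESeq2 called 2 feedback regulators in place of 4 for lean over obese and for lean over control, and 0 components in place of 1 for obese over control. Leaving out libraries gave 2 to 4 feedback regulators in both lean comparisons, 5 to 8 components (8) for lean over control, 0 to 2 components (1) and 5 to 10 output genes (8) for obese over control. Low counts limited the precision for Egr1 in E0771 (2 to 9 counts) and for ETV5, FOSL1 and DUSP6 in SkBr3 (at most 27).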

Other observations

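In control medium most genes of the wider ERK pathway were called between the mouse lines, as were most of all genes. Counts here are over genes that passed the filter in each line alone (12433 genes, 78.8% called, 5017 higher and 4781 lower in E0771). The share called was 94.1% of the output genes, 92.9% of the feedback regulators and 83.3% of the pathway components. Of 17 such output genes 4 were higher and 12 lower in E0771, with a median log2 difference of -1.55 against 0.02 over all of these genes. The lower genes included Hbegf (log2 -3.88), Phlda1 (-2.80) and Ccnd1 (-2.31), and the higher ones Myc (1.52), Egr3 (2.02) and Jun (0.80). Of 14 such feedback regulators 5 were higher and 8 lower, among them Dusp7 (1.70) and Spred2 (0.93) higher and Dusp10 (-3.60) and Spry1 (-3.20) lower. Of 24 pathway components 5 were higher and 15 lower, with a median of -0.37. Cell line and growth medium cannot be told apart here.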
